A study of Drosophila melanogaster with 16 samples.

Results

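CG3036 and CG8654 are solute transporter genes of the fruit fly Drosophila melanogaster that carry only their gene-model names. They were followed in fly heads through treatment with the convulsant drug pentylenetetrazole (PTZ) and after its withdrawal. Both were chosen by name from the array annotation, with their low 2nd day values already known, so those values are given below as a description without a test. They make up 2 of the 6793 genes named by the 15116 spots that name a single gene, and 4 of the 27648 spots of the array. Each gene had 2 spots side by side, which were averaged. In the Release 6 gene table, used for names and gene order only, CG3036 (gene ID 33695) lies on chromosome arm 2L and has 2 annotated transcripts, and CG8654 (gene ID 37275) lies on arm 2R and has 4. The sources used here do not say which of these transcripts the spotted cDNAs detect.

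Both proteins belong by sequence to the major facilitator superfamily, a large class of membrane carriers that move small solutes across a membrane by alternating between an outward-open and an inward-open form. CG3036 falls in the SLC17 type, whose members in flies and mammals carry phosphate and organic anions, including glutamate into synaptic vesicles. CG8654 falls in the SLC22 type, whose members carry organic cations, organic anions, carnitine and many drugs. In flies as in mammals, carnitine shuttles fatty acyl groups between cell compartments so that they can be oxidised, and the fat body, a tissue that also surrounds the brain inside the head, is a main site of lipid storage and use. What CG3036 and CG8654 themselves carry is predicted only from these families.

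Flies were wild type Oregon-R virgin females, 3 to 4 days old at the start, and heads were collected from vials of flies given normal food (NF) or food with PTZ at 8 mg/ml. PTZ blocks GABA-gated chloride channels and is widely used to provoke seizures in animals. The groups were 12 hrs, 2nd day and 7th day on PTZ, and a 14th day group in which flies had 7 days of PTZ and then 7 days of normal food. Each group had 4 two-colour cDNA arrays, and each array compared PTZ heads with NF heads of the same time directly, so every NF group shared the strain, the sex and the handling of its PTZ group. The labels describe the 4 replicates of a group as biological, each from its own vials and head pools. PTZ heads carried the red dye Cy5 in replicates 1 and 2 and the green dye Cy3 in replicates 3 and 4. One array, 7th day replicate 4, is called 7th day in its title and withdrawal in its treatment text. Its title was followed, and values without it are given where they matter.

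Values are log2 ratios of PTZ over NF, after the median of each array was set to 0 and the sign of replicates 3 and 4 was turned. A value of 1 therefore means a doubling and a value of -1 a halving against a spot in the middle of the array. The files give ratios and no separate channel signals, so levels of CG3036 and CG8654 in NF heads and levels set against other genes are not known. The number of arrays, 4 per time point, limits the precision. Between 8709 and 21970 spots had a value on an array. Before centring the array medians lay between -0.22 and -0.05 at 12 hrs and on the 2nd day, and they reached 1.38 and 1.57 at the later times. Turned arrays that differed in dye orientation were negatively correlated across features at 12 hrs (Spearman -0.44 to -0.32) and on the 2nd day (-0.39 to -0.08). Such pairs lay between -0.08 and 0.34 on the 7th day and between -0.37 and 0.35 after withdrawal. Pairs of the same dye orientation lay between 0.37 and 0.58 at 12 hrs and between 0.32 and 0.43 on the 2nd day. They lay between -0.08 and 0.43 on the 7th day and between -0.06 and -0.04 after withdrawal, so 14th day replicates of 1 orientation did not correlate. Values of both orientations are therefore given for CG3036 and CG8654 at each time. Markers used to check the tissue were counted where they were on the array. Measured on at least 12 of the 16 arrays were 9 of 11 photoreceptor, 4 of 5 neuron and 6 of 8 muscle markers. So were 5 of 14 fat body, 2 of 6 glia, 2 of 7 haemocyte and 2 of 9 ovary and germline markers. The full lists held 21, 18, 16, 20, 11, 9 and 14 genes in that order.

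The transporters were lowest on the 2nd day of PTZ, and that fall is what they were chosen for. CG3036 averaged 0.16 ± 0.26 (SD, n = 4) at 12 hrs, -0.75 ± 0.19 on the 2nd day, -0.28 ± 0.41 on the 7th day and 0.19 ± 0.13 on the 14th day. CG8654 averaged 0.61 ± 0.58 (SD, n = 4) at 12 hrs, -1.10 ± 0.15 (n = 3) on the 2nd day, -0.26 ± 0.13 (n = 4) on the 7th day and -0.15 ± 0.47 (n = 3) on the 14th day. On the linear scale the 2nd day means correspond to 40.4% less CG3036 and 53.4% less CG8654 transcript in PTZ heads than in NF heads. Outside the 2nd day neither gene passed an adjusted p of 0.19 at any time point, in a test where no feature of the array passed at 12 hrs, on the 7th day or on the 14th day. Heads are a mixture of tissues, and in such samples fewer cells that express a gene and less transcript per cell cannot be told apart.

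**Figure D1:**
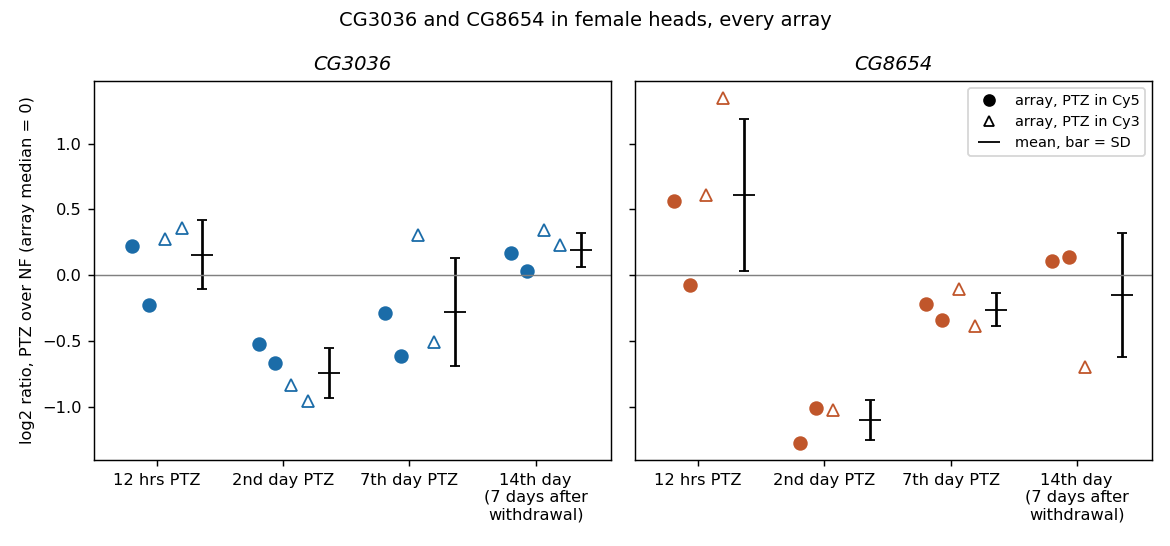
Log2 ratio of PTZ over NF on every array that measured CG3036 (left) and CG8654 (right), with the array median at 0, by time point; filled circles are arrays with PTZ in Cy5, open triangles arrays with PTZ in Cy3, and black bars the mean with its SD. All 2nd day points lie at or below -0.53, and CG8654 has no point for replicate 4 on the 2nd and 14th days.

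On the 2nd day, CG3036 read -0.53, -0.67, -0.83 and -0.96 in replicates 1 to 4. All 4 arrays were below 0, and the replicates with PTZ in Cy3 (mean -0.90) were lower than those with PTZ in Cy5 (mean -0.60). Within its own arrays CG3036 stood between the 1.52nd and the 3.87th percentile of all features. CG8654 read -1.27, -1.01 and -1.02 in replicates 1 to 3 and was not measured in replicate 4. These 3 arrays were again all below 0, between the 1.28th and the 1.89th percentile, with means of -1.14 in Cy5 and -1.02 in Cy3. For comparison, 7.37% of the 5415 features tested on the 2nd day were below 0 on every array that measured them, and 0.222% passed the adjusted p of 0.19, 11 of them lower and 1 higher. By mean, CG8654 was the 19th lowest and CG3036 the 46th lowest of these features. Both genes were taken by name with their low 2nd day values known, so these ranks reflect that choice. No threshold was set, so there are no values just inside or outside a limit to give.

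At 12 hrs, before that low point, CG8654 was above the array median on most arrays. It read 0.56, -0.07, 0.61 and 1.35 in replicates 1 to 4, so replicate 2 was near 0 and the other 3 were above it. Replicate 4 was higher than 99.5% of the features of its array, whereas replicate 2 was at the 39.8th percentile. The mean of 0.61, a 1.53-fold ratio of PTZ over NF, had a 95% interval of 0.08 to 1.14, and its adjusted p was 1.00 with limma over 5760 features. Here 0% of features passed the adjusted threshold and 2.34% had an unadjusted p under 0.05, CG8654 among them. Arrays with PTZ in Cy3 averaged 0.98 and arrays with PTZ in Cy5 averaged 0.24. Without replicate 4 the mean was 0.36, and without replicate 2 it was 0.84.

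CG3036 was closer to 0 at the same time. Its 12 hrs values were 0.22, -0.23, 0.27 and 0.36, with the same replicate 2 as the low one. The interval of the mean ran from -0.15 to 0.46, with an adjusted p of 1.00 in limma. The Cy5 arrays averaged -0.002 and the Cy3 arrays 0.31. Without replicate 2 the mean was 0.28, and without replicate 4 it was 0.09.

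On the 7th day of PTZ the transporters stood below the array median by similar amounts and with different spreads. CG8654 read -0.22, -0.34, -0.11 and -0.39, below 0 on all 4 arrays, as were 10.7% of the 7289 features tested. Both dye orientations gave a similar mean, -0.28 in Cy5 and -0.25 in Cy3, and the interval of the overall mean ran from -0.54 to 0.01 with an adjusted p of 0.589 in limma. CG3036 read -0.29, -0.62, 0.30 and -0.51, so replicate 3 was above 0 and the other 3 were below. Its Cy5 arrays averaged -0.45 and its Cy3 arrays -0.10. The interval ran from -0.67 to 0.11 with an adjusted p of 0.636 in limma, and the mean was -0.47 without replicate 3, -0.17 without replicate 2 and -0.15 as deposited without centring. In this comparison 0% of features passed the adjusted threshold and 8.4% had an unadjusted p under 0.05, and neither transporter was among them. Without 7th day replicate 4, the array with the disagreeing labels, the means were -0.20 for CG3036 and -0.22 for CG8654.

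After 7 days without PTZ, CG3036 was above 0 on every array and CG8654 was not. CG3036 read 0.17, 0.03, 0.34 and 0.23 on the 14th day, and 5.49% of the 6464 features tested were above 0 on every array that measured them. The interval of its mean was -0.15 to 0.54, with an adjusted p of 1.00 in limma. Arrays with PTZ in Cy5 averaged 0.10 and arrays with PTZ in Cy3 averaged 0.28. CG8654 read 0.11, 0.13 and -0.70 in replicates 1 to 3 and was not measured in replicate 4. Replicate 3, with PTZ in Cy3, was the only low one, and without it the mean changed sign from -0.15 to 0.12. The interval of the CG8654 mean ran from -0.67 to 0.36, again with an adjusted p of 1.00 in limma. No feature passed the adjusted threshold on the 14th day (0%), and 2.18% had an unadjusted p under 0.05.

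Ordered by mean, CG3036 ran from the 2nd day through the 7th day and 12 hrs to the 14th day, and each neighbouring pair in that order had overlapping values. The order for CG8654 was 2nd day, 7th day, 14th day and 12 hrs. Only the step from the 2nd to the 7th day was without overlap, while 7th and 14th day values overlapped, as did 14th day and 12 hrs values. The genes were chosen for their 2nd day values, so differences among the 7th day, the 14th day and 12 hrs were tested with limma over the 8 arrays of each pair. Members were chosen with earlier results of these data known, so these tests may not be wholly free of that choice.

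CG8654 was lower on the 7th day than at 12 hrs by 0.87 on the log2 scale (SE 0.26, 95% interval -1.46 to -0.29). The highest 7th day value (-0.11) was just below the lowest 12 hrs value (-0.07), and 4.17% of the 4460 features tested were lower on the 7th day without overlap. That separation held only for the average of the 2 spots. The first spot alone reached -0.035 on the 7th day and went down to -0.084 at 12 hrs. The second spot alone reached 0.232 and went down to -0.063, so each spot by itself overlapped. The adjusted p was 0.703 in limma, where 0.135% of features passed, and CG8654 was among the 3.23% that were lower at an unadjusted p under 0.05. It was the 20th lowest of the 4460 by this difference. Leaving out 12 hrs replicate 4, the highest array, the difference was -0.63. For CG3036 the same difference was -0.44 (SE 0.22, interval -0.94 to 0.07), the values overlapped and the adjusted p was 0.761.

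From the 7th to the 14th day, the end of treatment against 7 days of recovery, CG3036 differed by 0.47 (SE 0.22, interval -0.01 to 0.95, adjusted p = 0.648 in limma). The values overlapped because of 7th day replicate 3 (0.30), without which the difference was 0.66. CG8654 differed by 0.11 (SE 0.24, adjusted p = 0.913), and this small difference changed sign without 14th day replicate 1 (-0.018) or replicate 2 (-0.033). Of 5881 features 0% passed and 7.65% had an unadjusted p under 0.05. Between 12 hrs and the 14th day CG3036 differed by 0.035 (interval -0.36 to 0.43), a value that was -0.093 without 12 hrs replicate 2 and -0.014 without 14th day replicate 3. CG8654 was lower on the 14th day than at 12 hrs by an estimate of -0.76 (SE 0.34, interval -1.54 to 0.01), which was -0.49 without 14th day replicate 3 and -0.99 without 12 hrs replicate 2. Both adjusted p values were 1.00 in limma, and of 3993 features 0% passed and 2.18% had an unadjusted p under 0.05.

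Differences from the 2nd day are values only, because the 2nd day chose the genes. From 12 hrs to the 2nd day the difference was -0.90 for CG3036 and -1.71 for CG8654, both without overlap, a state that 1.78% of 4438 features shared in that direction. From the 2nd to the 7th day the difference was 0.47 with overlap for CG3036 and 0.84 without overlap for CG8654, against 1.95% of 4196 features higher without overlap. From the 2nd to the 14th day it was 0.94 for CG3036 and 0.95 for CG8654, both without overlap, as were 2.49% of 3808 features.

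Set against each other on the same array, the transporters differed in opposite directions at the first 2 time points. CG8654 minus CG3036 was above 0 on 4 of 4 arrays at 12 hrs, with a mean of 0.45 ± 0.37 (SD, n = 4), and below 0 on 3 of 3 arrays on the 2nd day, with a mean of -0.43 ± 0.29 (SD, n = 3). On the 7th day it averaged 0.02, with 3 arrays above 0 and 1 below, and on the 14th day -0.33 ± 0.62 (n = 3). Between 12 hrs and the 2nd day the mean of CG8654 went from 0.61 to -1.10 and that of CG3036 from 0.16 to -0.75. Over the 14 arrays that measured both, the values had a Pearson r of 0.72 and a Spearman rho of 0.69 and shared their sign on 12. Over the 11 arrays without the 2nd day, r was 0.50, rho was 0.44 and the sign was shared on 9. These correlations run over 4 time points whose arrays also share dye and slide effects, and they are given as a description.

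The duplicate spots gave the CG8654 values an unequal footing across time. At 12 hrs and on the 2nd day its 2 spots lay 0.021 to 0.158 and 0.028 to 0.071 apart, below the median of all spot pairs on each of those arrays, which ran from 0.113 to 0.206. On the 7th day they lay 0.545 to 0.675 apart, and only 5.04% to 14.7% of spot pairs had a larger gap on those arrays. On the 14th day the gap was 0.405 to 1.04, with 5.67% to 19.6% of pairs larger. The sign within a pair was not fixed: in 7th day replicates 1 to 4 the first spot read -0.51, -0.04, -0.44 and -0.66, and the second read 0.07, -0.65, 0.23 and -0.12. The 7th day mean of CG8654 was -0.41 from the first spot alone and -0.12 from the second, and its 14th day mean was -0.34 and 0.036. CG3036 spots stayed 0.008 to 0.203 apart on all 16 arrays. Whether the wider gaps come from the spots or from the signal at those times was not tested.

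**Figure D2:**
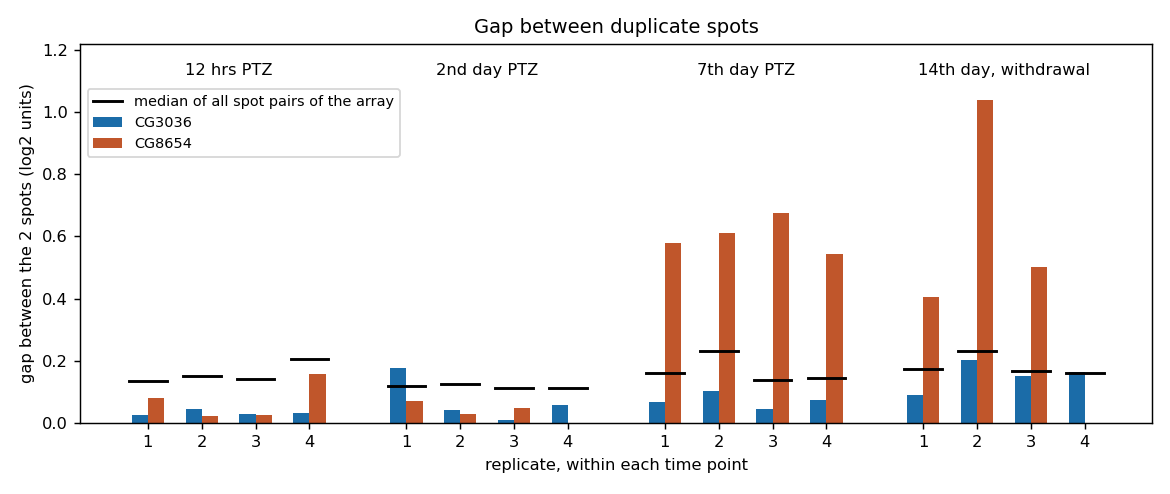
Gap in log2 units between the 2 spots of CG3036 (blue) and of CG8654 (orange) on each array, with a black line for the median gap of all spot pairs on that array; bars start at 0. CG8654 gaps are 0.405 or more on every 7th and 14th day array that measured it and 0.158 or less before.

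Other genes of the SLC17 type were spread around 0 on the 2nd day. Of 26 listed genes 17 were on the array, and 10 were tested at 12 hrs, 10 on the 2nd day, 12 on the 7th day and 7 on the 14th day. The 9 other members tested on the 2nd day had a median of 0.04, with 3 below 0, beside a median of 0.00 over all features, 48.1% of which were below 0. Picot, a carrier of inorganic phosphate named here after its values were seen, came next to CG3036 with -0.31, below 0 on 4 of 4 arrays. Of the other 11 tested on the 7th day 4 were below 0, against 49.3% of all features, and their median was 0.05. CG18788 read -0.43 ± 0.39 (n = 3) and dmGlut -0.68 ± 0.93 (n = 3) there, both with an adjusted p of 0.589 in limma. MFS10 read 0.21 ± 0.25 (n = 3) at 12 hrs and CG7881 0.33 ± 0.13 (n = 3) on the 14th day, each with an adjusted p of 1.00. None of the members passed the adjusted threshold at 12 hrs, on the 7th day or on the 14th day in limma, and none had an unadjusted p under 0.05 there.

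The SLC22 type had 24 listed genes, 15 of them on the array and 7, 6, 6 and 7 tested at the 4 times in order. All 7 had a mean above 0 at 12 hrs, while 49.4% of all features were below 0, and CG8654 was the highest of them. The 6 others had a median of 0.09. Single arrays were mixed: of the other members measured, 2 of 7, 2 of 5, 5 of 8 and 2 of 3 were below 0 in replicates 1 to 4. CG7458 read 0.20 ± 0.27 (n = 3) and CG14856 0.18 ± 0.23 (n = 4), each with an adjusted p of 1.00 in limma. The 5 others tested on the 2nd day ran from CG14855 at -0.05 to CG6231 at 0.04, and CG8654 at -1.10 stood far from all of them. CarT, which carries the histamine conjugate carcinine in photoreceptors, read -0.04. CG14855 and CarT are named here after their values were seen. The 5 others tested on the 7th day had a median of -0.09 with 3 below 0, against 49.3% of all features. CG6231 read -0.19 ± 0.16 (n = 4, adjusted p = 0.656 in limma) and CG4630 0.24 ± 0.43 (n = 3, adjusted p = 0.705) on that day. From 12 hrs to the 7th day all 5 members tested, CG8654 included, had an estimate below 0, as did 58.3% of all features. The 4 others had a median of -0.23 against -0.05 over all features. None passed the adjusted threshold in that difference, and on the 14th day the median of the 6 others was 0.01.

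**Figure D3:**
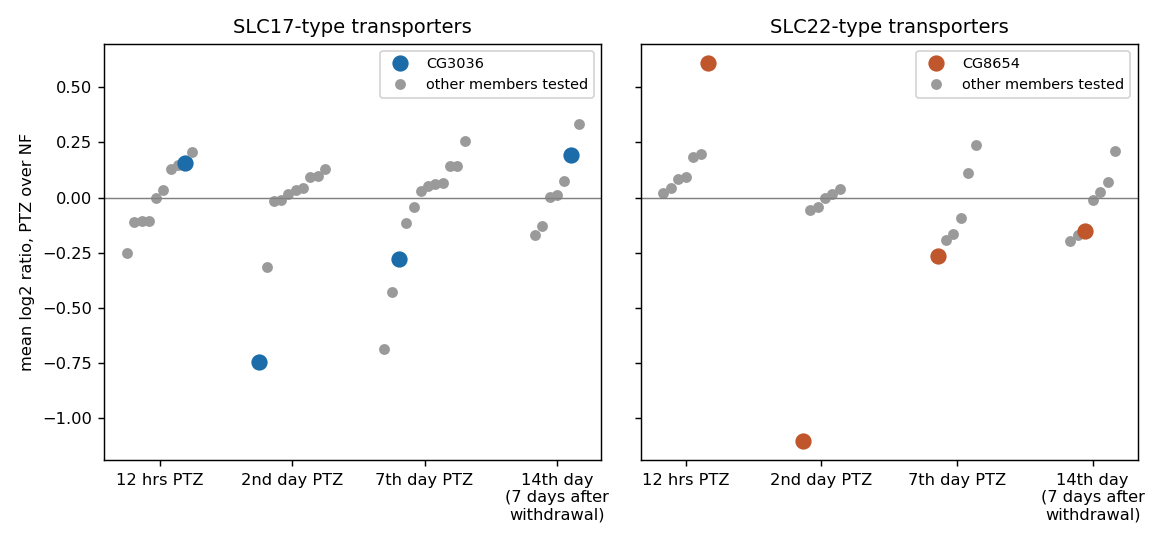
Mean log2 ratio of PTZ over NF for each tested member of the SLC17 type (left) and the SLC22 type (right) at each time point, ordered by value within a time, with CG3036 in blue, CG8654 in orange and other members in grey. On the 2nd day CG3036 (-0.75) and CG8654 (-1.10) are the lowest points of their types.

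Other carriers of small solutes were at hand for comparison, and none of their members passed at any time point. Among 16 sugar transporters on the array, nebu read -0.27 ± 0.24 (n = 4) on the 7th day and CG3285 -0.62 ± 0.56 (n = 3) on the 14th day. CG1213 read -0.24 ± 0.19 (n = 4) at 12 hrs, and sut4 read 0.82 ± 0.57 (n = 3) on the 2nd day, in the direction opposite to both CG3036 and CG8654. Among 11 monocarboxylate transporters, which carry lactate, pyruvate and related acids, CG10019 read -0.40 ± 0.21 (n = 4) on the 7th day, CG8468 0.31 ± 0.29 (n = 4) and CG8389 0.27 ± 0.32 (n = 3), and out read -0.65 ± 0.30 (n = 3) on the 14th day. The amino acid and neurotransmitter carriers, 26 on the array, held CG13743 at 0.71 ± 0.37 (n = 3), CG16700 at -0.48 ± 0.13 (n = 3), the leucine transporter mnd at -0.47 ± 0.52 (n = 3) and blot at -0.40 ± 0.43 (n = 4) on the 7th day. Nucleoside and dicarboxylate carriers were too thinly measured to describe, with 0 of 5 tested at 12 hrs and on the 2nd day. CNT1 and CNT2, concentrative nucleoside transporters, read -0.25 ± 0.42 and -0.28 ± 0.49 (each n = 3) on the 14th day. All of these genes had adjusted p values of 0.589 or higher in limma at these times, and they were picked as the smallest p of their lists. An unadjusted p under 0.05 was held by sut4 on the 2nd day, where 4.82% of all features had one, by CG10019, CG13743 and CG16700 on the 7th day (8.4%), and by CG3285 and out on the 14th day (2.18%).

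Genes of the carnitine cycle and of fatty acid beta-oxidation were listed because CG8654 is of the SLC22 type. Of 13 on the array, 7 of 8 tested at 12 hrs were above 0 with a median of 0.17, and none passed. On the 2nd day 6 of 8 tested were below 0 with a median of -0.21, and 1 passed. Over all features, 49.4% were below 0 at 12 hrs and 48.1% on the 2nd day. CROT, which moves acyl groups of medium length onto and off carnitine, read 0.26 ± 0.58 (n = 4) at 12 hrs and -1.08 ± 0.09 (n = 4) on the 2nd day, below 0 on 4 of 4 arrays. It was the only member of this list to pass on the 2nd day (adjusted p = 0.0347 in limma, 1 of the 11 features, 0.203%, that passed lower). That call was lost with trend and robust eBayes settings and without 2nd day replicate 3 or replicate 4, where 0 features passed. Next to it, scu, a mitochondrial hydroxyacyl-CoA dehydrogenase, read -0.32 ± 0.21 (n = 4, adjusted p = 0.776). By the 7th day scu read -0.44 ± 0.15 (n = 3) and yip2, a thiolase of beta-oxidation, -0.68 ± 0.44 (n = 3), both with an adjusted p of 0.589. CG4586 read 0.37 ± 0.40 (n = 3) on that day, so the list as a whole had a median of 0.04, and CG4860 at 0.22 ± 0.25 (n = 3) at 12 hrs had an adjusted p of 1.00. On the 14th day 4 members were tested, with a median of 0.01 and CROT at -0.07.

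Some fat body markers were low on the 2nd day together with the transporters. Of 14 on the array, 8 were tested then and 6 were below 0, with a median of -0.32. Over all features of that day, 48.1% were below 0 and 0.203% passed lower. The 2nd day medians of the photoreceptor, neuron, muscle and ovary lists were 0.08, 0.01, 0.09 and -0.01. Glia markers (median -0.12, 3 of 4 tested below 0) and haemocyte markers (median -0.11, 2 of 2) were also low that day. The marker fit is a peptide that the head fat body of females secretes. It read -1.25 ± 0.15 (SD, n = 4, adjusted p = 0.0347 in limma) on the 2nd day. AkhR, the receptor of adipokinetic hormone, named after its values were seen, read -0.54 ± 0.08 (n = 4, adjusted p = 0.145 in limma). The lipase gene bmm, also named after its values were seen, went the other way at 0.60 ± 0.23 (n = 4, adjusted p = 0.372). The calls of fit and AkhR were also lost under the settings that lost the call of CROT. All of these genes, CROT included, were named with results of these data known. Their 2nd day p values are therefore a description, as are the 2nd day values of the transporters. Medians of the markers on single arrays lay between -0.70 and 0.08 at 12 hrs, between -0.49 and 0.10 on the 2nd day, between -0.47 and -0.01 on the 7th day, and between -0.31 and 0.11 after withdrawal. On the 7th day 5 of 7 tested markers were below 0 and on the 14th day 4 of 8, with medians of -0.09 and 0.04. Over all features 49.3% were below 0 on the 7th day, 51.7% on the 14th day and 49.4% at 12 hrs. At 12 hrs 4 of 5 tested markers were below 0, with a median of -0.25. The marker fit read -1.05 there on the 2 arrays that measured it, whereas CG8654 and CG3036 were above 0 on average. The part of the fat body in the 2nd day values of CG3036 and CG8654 was not tested.

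Likeness of pattern was measured by the Pearson correlation with every named gene over shared arrays, with no statement on shared control. For CG3036, 1717 genes had at least 13 shared arrays, and the closest were CG6357 (r = 0.82, 16 arrays), CG1640, an alanine aminotransferase by sequence (r = 0.81, 14 arrays), CG3961, an acyl-CoA synthetase by sequence (r = 0.81, 16 arrays), pst (r = 0.78, 16 arrays) and CROT (r = 0.77, 15 arrays). CG8654 was 13th in that order. Without the 2nd day arrays CG1640 had an r of 0.89 and CG6357 of 0.83, and CROT had 0.43. CG6357 and CG3961 shared the shape of CG3036, with 2nd day means of -0.43 and -0.52.

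For CG8654, 1493 genes had at least 12 shared arrays. CROT came first (r = 0.87, 13 arrays), followed by GIIIspla2, a secreted phospholipase A2 by sequence (r = 0.78, 14 arrays), CG3036 (r = 0.72, 14 arrays), CG10516 (r = 0.71, 12 arrays) and SIFaR, the receptor of the neuropeptide SIFamide (r = 0.70, 12 arrays). Without the 2nd day arrays r was 0.72 for CROT, 0.90 for GIIIspla2, 0.70 for SIFaR and 0.17 for CG10516. The mean of GIIIspla2 was 0.98 at 12 hrs and -0.17 on the 2nd day, and that of CROT was 0.26 and -1.08. All of these correlations were picked as the highest of many and are a description.

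**Figure D4:**
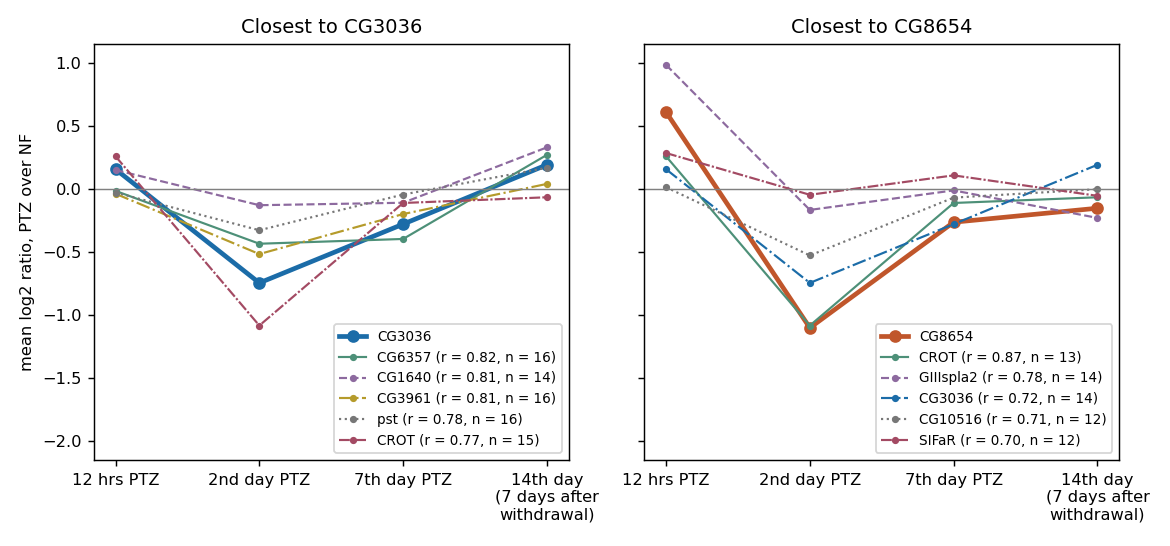
Mean log2 ratio of PTZ over NF at the 4 time points for CG3036 (left, blue) and CG8654 (right, orange) with the 5 named genes whose values over arrays were most like each, and Pearson r and the number of shared arrays in the legend. CROT at -1.08 is the line that falls as far as CG8654 on the 2nd day.

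Of the 8 genes nearest the transporters on the chromosome, 4 were on the array and 3 were measured on enough 2nd day arrays. Beside CG3036 on arm 2L, CG3008 read 0.04 ± 0.13 (n = 4) and snsl 0.04 ± 0.11 (n = 4) on the 2nd day, and CG15625 was measured on enough arrays only on the 7th day, at 0.70 ± 0.33 (n = 3). Beside CG8654 on arm 2R, CG16898 read 0.17 ± 0.07 (n = 3) at 12 hrs and -0.16 ± 0.20 (n = 4) on the 2nd day. These neighbours are named by their position and not by their values.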

How the data were processed

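The authors scanned the slides, quantified them in GenePix Pro 6.0 and used Acuity 4.0 for ratio normalization, then filtered out spots that were weak, saturated, uneven or flagged. The deposited table holds log2 ratios of Cy5 over Cy3, with dye-swapped arrays unturned; the sources used here do not give how its values were centred. Values at the ceiling of 16.61, 53 in all, were treated as missing. Each array was centred on its median, replicates 3 and 4 were turned, and spots of 1 gene were averaged, giving 13059 features. Rows were named by the platform annotation with symbols updated through the Release 6 gene table, and 222 rows kept an older symbol. No sequence was printed.

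With R 4.3.3 and limma 3.58.1 (lmFit, eBayes, Benjamini-Hochberg over all features, threshold 0.19), means were tested against 0 over features on at least 3 of 4 arrays, and differences over those with at least 3 arrays in each group. P-values set the mean or difference against the spread between replicates, with the variance of each feature moderated over all features. The main fit had no dye term, so that spread also holds effects of dye orientation. Members, lists and rules were chosen with earlier results of these data known. Named genes were CG3036 and CG8654, the 5 genes most correlated with each (at least 8 arrays and 80% of those of the member), up to 4 members with the smallest p at 12 hrs, 7th or 14th day in each transporter and carnitine list, and fit and CROT. Glia (6 of 11 on the array) and haemocyte markers (7 of 9) were listed too; their 2nd day medians were -0.12 (4 tested) and -0.11 (2 tested). Functions were checked on simulated data. Alternatives were centring, a dye term, array minimum, single spots, ceiling values kept, threshold 0.05, eBayes settings, a single fit of 16 arrays, SAM with all 16 sign changes, a replicate block and each replicate left out.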

Additional observations from a re-analysis of the deposited data

Results flagged for a closer look

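CG3036 was above 0 on every 14th day array and below 0 on every 2nd day array, and its means differed by 0.94 on the log2 scale. This difference was not tested, since the 2nd day chose the gene. No group of 4 arrays of CG3036 or CG8654 held an array whose gap to the others passed Dixon's limit. That limit was for 4 values and did not cover the 2nd and 14th day groups of CG8654, which had 3 arrays each. In the 14th day group replicate 3 read -0.70, beside 0.11 and 0.13.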

How the results depend on the processing

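At 12 hrs, on the 7th day and in the differences among 12 hrs, 7th and 14th day, CG3036 and CG8654 passed the adjusted threshold under none of the alternatives that gave a value. Some of their estimates changed sign. The 14th day mean of CG8654 (-0.15) was 0.68 as deposited without centring, 0.036 from its second spot alone and between -0.30 and 0.12 with 1 array left out (0.12 without replicate 3). With a dye term CG8654 read -0.29 on that day. Its 14th minus 7th day difference (0.11) ran from -0.033 to 0.38 with 1 array left out, and its 14th day minus 12 hrs difference (-0.76) was 0.061 as deposited. For CG3036 the latter difference (0.035) ran from -0.093 to 0.10 with 1 array left out. As deposited, the 7th minus 2nd day difference of CG8654 was 1.01, and the 14th minus 2nd day differences were 1.19 for CG3036 and 1.83 for CG8654. The 2nd day means kept their sign throughout, from -0.82 to -0.68 for CG3036 and from -1.15 to -1.02 for CG8654 with 1 array left out. Requiring all 4 arrays gives no 2nd or 14th day value of CG8654.

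Counts over all features moved more. At 12 hrs (0 called) a single fit of 16 arrays and SAM gave 1 each, and leaving out 1 array 0 to 4 (4 without replicate 2). On the 2nd day (12 called) trend and robust settings gave 0, the threshold of 0.05 gave 4, the fit of 16 arrays 7, SAM 3, and leaving out 1 array 0 to 11 (0 without replicate 3 or 4). On the 7th day (0 called) values as deposited and centring on the mean gave 1 each, a dye term 2, the fit of 16 arrays 3, SAM 1, and leaving out 1 array 0 to 5 (5 without replicate 1). For 7th day minus 12 hrs (6 called) the counts were 15 as deposited, 3 with all 4 arrays, 2 at 0.05, and 0 to 11 with 1 array left out. For 14th minus 7th day and 14th day minus 12 hrs (0 called) they were 1 each as deposited. For 2nd day minus 12 hrs (1 called) they were 0 with a dye term and at 0.05, 8 in the fit of 16 arrays, and 0 to 5 with 1 array left out. For 7th minus 2nd day (1 called) they were 26 as deposited, 0 with a dye term, with all 4 arrays, with trend and robust settings and at 0.05, 2 in the fit of 16 arrays, and 0 to 31 with 1 array left out (31 without 7th day replicate 4). For 14th minus 2nd day (2 called) they were 1 as deposited, with a dye term, with at least 2 arrays and with ceiling values kept, 0 with trend and robust settings, at 0.05 and in the fit of 16 arrays, and 0 to 3 with 1 array left out. The cause of these moves was not tested.

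The groups share replicate numbers, but in no comparison did every same-numbered pair of arrays deviate together with a correlation over 0.1. The correlations were all positive for 2nd day minus 12 hrs (0.078 to 0.23), where 3 of 4 pairs correlated best with their own number, and ran from -0.03 to 0.21 for 7th day minus 12 hrs. With the replicate number as a block, 7th day minus 12 hrs had 4 calls, 2nd day minus 12 hrs, 7th minus 2nd day and 14th minus 2nd day had 0, and the 7th day minus 12 hrs difference of CG8654 had an adjusted p of 0.540 in limma and that of CG3036 0.673.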
